A study of Caenorhabditis elegans with 2 samples.

Results

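The regions described here are the ROW-1 calls at tRNA genes of the nematode Caenorhabditis elegans. A call is 1 row of the pooled list, which the authors made from both replicates and which holds peaks together with background. A call was taken when its summit lay from 500 bp upstream to 200 bp downstream of the 5' end of a tRNA gene and in no such window of a protein-coding gene. This gave 410 calls among the 29979 pooled calls on the nuclear chromosomes (1.37%), at 402 of the 612 nuclear tRNA genes. Of the calls, 188 lay on X and 222 on the autosomes. They form 354 separate sets of overlapping rows, so neighbouring calls can share the same signal, and 56 calls (54 in 2 windows and 2 in 3) lay in the windows of more than 1 tRNA gene.

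The samples were 2 biological replicates of 1 group, assayed by ChIP-seq, in which DNA recovered with a protein is sequenced. Both were whole hermaphrodites at the L4 larval stage, 48 h after synchronization of starved L1 larvae. The strain, OP510, has the genotype unc-119(tm4063) III with the transgene wgIs510, which carries row-1 (F37D6.2) fused at its C terminus to GFP-FLAG, and the precipitation used an antibody to GFP. The sources used here do not name the sequence that drives the transgene, whole animals mix all tissues, and no control library or other tagged strain was analysed here. Whether the tRNA genes would give calls with another tagged protein was not tested. The files hold no read counts, so the depth is unknown, and no contrast of conditions exists.

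tRNAs carry amino acids to the ribosome, and each amino acid is served by many gene copies spread over the genome. tRNA genes are transcribed by RNA polymerase III from a promoter inside the gene, made of an A box near the 5' end and a B box further in. The factor TFIIIC binds these boxes and places TFIIIB just upstream of the start, which in turn recruits the polymerase. In C. elegans the X chromosome holds many tRNA genes, here 276 of the 612 (45.1%), against 57 to 78 on each autosome. ROW-1 itself is a protein with zinc fingers of the C2H2 kind, which in many proteins bind DNA.

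Sequences of 6 of the most strongly called tRNA genes are shown, to compare the genes with the DNA just upstream of them. Each run is the gene's own strand from 5' to 3' in WBcel235 (ce11), read from RefSeq, with 40 bases of upstream DNA first. Capitals mark the looser A box letters TNGNNNAG and the looser B box letters GTTCNANNC. The first 3 are identical tRNA-Pro genes at 3 places in the genome, so that only the upstream 40 bases differ between them.
ZK899.t1: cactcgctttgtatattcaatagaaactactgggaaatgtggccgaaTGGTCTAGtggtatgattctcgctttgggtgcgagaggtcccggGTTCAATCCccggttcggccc
W09D6.t2: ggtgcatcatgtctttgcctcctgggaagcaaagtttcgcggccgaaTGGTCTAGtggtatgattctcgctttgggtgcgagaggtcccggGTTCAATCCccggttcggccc
F46G11.t2: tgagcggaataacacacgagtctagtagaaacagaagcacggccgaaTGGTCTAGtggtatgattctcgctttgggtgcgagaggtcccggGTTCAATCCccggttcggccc
R11.t1: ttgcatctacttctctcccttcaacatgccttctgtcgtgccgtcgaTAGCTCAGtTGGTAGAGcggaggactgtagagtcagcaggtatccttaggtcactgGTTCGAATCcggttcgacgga
C18A11.t2: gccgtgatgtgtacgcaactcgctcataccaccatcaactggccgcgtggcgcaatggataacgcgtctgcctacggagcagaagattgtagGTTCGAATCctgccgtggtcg
C04A11.t1: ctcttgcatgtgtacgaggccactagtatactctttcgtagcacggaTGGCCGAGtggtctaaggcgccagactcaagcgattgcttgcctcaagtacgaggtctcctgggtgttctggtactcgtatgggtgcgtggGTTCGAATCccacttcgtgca
The runs lie at chrX:9467729-9467840, chrIII:11066848-11066959, chrX:5801211-5801322, chrX:16209769-16209892, chrX:8036685-8036797 and chrX:13665515-13665673, with C04A11.t1 on the plus strand and the others on the minus strand. The 3 tRNA-Pro genes match over all 72 bases of the gene, while their upstream runs matched at 10, 10 and 15 of 40 bases in the 3 pairs. Of the 6 genes, C18A11.t2 had no match to the looser A box letters, and R11.t1 had a pair of matches to them.

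The strongest call at a tRNA gene was at C18A11.t2, a tRNA-Arg gene on X outside any protein-coding gene. Its signal value, the authors' measure of strength, was 448 in the pooled list (rank 56 of 30000), 194 in the list of replicate 1 and 255 in that of replicate 2. The call was wide, from 8035973 to 8036981, and its summit lay 126 bp into the direction of transcription, past the 3' end of the gene. The next calls were at M02F4.t1, a tRNA-Gly gene, with a signal of 336, at W02H3.t1, a tRNA-Leu gene, with 328, and at R11.t1, a tRNA-Tyr gene, with 324. In replicates 1 and 2 the signal was 180 and 155 at M02F4.t1, 185 and 147 at W02H3.t1, and 175 and 143 at R11.t1. Within the lists these calls ranked 114 and 80, 108 and 89, and 120 and 96, and C18A11.t2 ranked 98 and 42. The call at M02F4.t1 also lay in the window of M02F4.t2, a tRNA-Glu gene on the other strand, so its signal cannot be given to 1 of the pair.

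Of the 12 calls with the highest pooled signal (198 to 448), 11 lay on X. All 12 were peaks of the authors' optimal list, which holds the calls past their reproducibility threshold. Among the calls at tRNA genes, the optimal peaks were those with a signal of at least 74.8, the lowest in that list. The 12 were thus optimal by the way they were chosen. The call on an autosome was at W09D6.t2 on chromosome III, the second tRNA-Pro gene shown above, with a signal of 221 and 152 and 73.5 in replicates 1 and 2. The other tRNA-Pro genes shown had signals of 256 (ZK899.t1; 131 and 128 in the replicates) and 203 (F46G11.t2; 98.6 and 105). The calls at W09D6.t2 and F46G11.t2 each lay in the windows of a pair of identical genes on opposite strands, with W09D6.t1 and F46G11.t1. The calls at F15G9.t2 and C53C7.t2 likewise lay in the windows of F15G9.t1 and C53C7.t1, so that 5 of the 12 calls were shared by a pair of tRNA genes. The rest of the 12 were at F41D9.t3 (tRNA-Asn, 233), F15G9.t2 (tRNA-Ala, 226), C53C7.t2 (tRNA-Ser, 216), C04A11.t1 (tRNA-Leu, 203) and F55G7.t2 (tRNA-Thr, 198). The lowest percentile among the 12 was 98.5 in each replicate's list. By percentile, 3 of the 12 stood higher in replicate 1 and the others in replicate 2.

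The genes nearest to the 12 summits serve 9 amino acids, and 9 of the 12 lay outside the span of any protein-coding gene. The same held for 322 of all 612 nuclear tRNA genes and for 180 of the 276 on X. F15G9.t2 lay within him-4, which encodes the extracellular matrix protein hemicentin, on the same strand. F41D9.t3 and W09D6.t2 lay on the other strand of sulp-3 and rsa-2. The strongest calls on the remaining chromosomes were at F47G6.t1 (tRNA-Arg, chromosome I, 171), T21B4.t1 (tRNA-Ile, II, 119), K08E7.t1 (tRNA-Lys, IV, 111) and F15B9.t1 (tRNA-Ala, V, 118). In replicates 1 and 2 these had signals of 117 and 56.4, 69.5 and 48.1, 76.4 and 33.6, and 65.5 and 53.2. The percentiles were 98.96 and 97.5, 97.2 and 96.8, 97.6 and 94.1, and 96.9 and 97.3, so that F15B9.t1 stood higher in replicate 2 and the others in replicate 1.

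Calls were not confined to a few strong genes. Of the 612 nuclear tRNA genes, 402 had a call as defined (65.7%, exact Clopper-Pearson 95% interval 61.8 to 69.4%), and 62 more (10.1%) had a call that also lay in the window of a protein-coding gene, leaving 148 (24.2%) with none. In each replicate's own list, 63.6% and 61.9% of tRNA genes had such a call (62.7 ± 1.16%, SD, n = 2). With calls in coding windows counted too, 75.8% of tRNA genes had a pooled call. The same share was 29.2% of protein-coding genes, 50.9% of snoRNA genes, 37.5% of miRNA genes, 31.0% of snRNA genes and 8.98% of pseudogenes. Of snoRNA genes, which encode guides of RNA modification, 38.2% had a call in no coding window. Of the 20 annotated nuclear rRNA genes none had a call, which, at the limit of 3 counts that a count of 0 allows, leaves room for a share of up to 15.0%. These intervals and limits cover counting error only, and whether reads can be placed at the rRNA genes was not tested.

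An optimal peak lay in the window of 140 tRNA genes (22.9%, 19.6 to 26.4%), against 4.58% of protein-coding genes and 21.4% of snoRNA genes. Of the 410 calls, 127 overlapped an optimal peak (31.0%, 26.5 to 35.7%), against 6.62% of all nuclear pooled calls, and 105 were optimal peaks themselves (25.6%), against 5.18%. The optimal list comes from the same libraries, and among the 410 calls it amounted to a cut at a signal of 74.8. It is thus no independent measure. The 105 make up 6.76% of the 1553 nuclear optimal peaks.

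**Figure D1:**
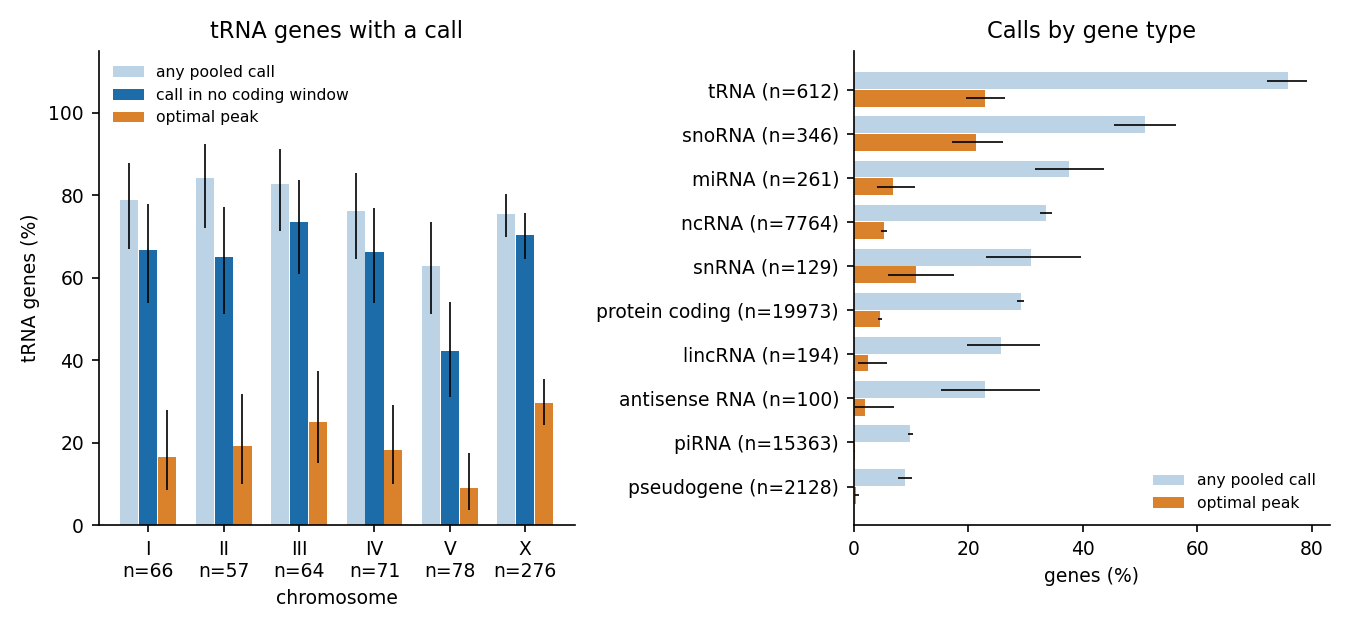
Left, the percentage of tRNA genes per chromosome with any pooled call in the window, with a call in no protein-coding window, and with an optimal peak; right, the percentage of genes of each annotated type with any pooled call and with an optimal peak (n, genes). Bars show shares and lines exact 95% intervals: tRNA genes stand highest for any call at 75.8%, and chromosome V has the lowest shares of tRNA genes in all 3 measures (62.8%, 42.3% and 8.97%).

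The calls lay close to the tRNA 5' end. The median summit was at 8 bp (quartiles -27.8 and 60 bp, negative values being upstream), 54.4% of summits lay within 50 bp and 74.1% within 100 bp. Upstream summits made up 42.2% (37.4 to 47.1%). The strong calls were the closest: with a signal of 75 or more (105 calls) 81.0% lay within 50 bp, with 30 to 75 (180 calls) 55.0%, and below 30 (125 calls) 31.2%. The median unsigned distance was 22, 43.5 and 97 bp in these classes. Of the 12 strongest calls, 10 had an upstream summit, at -27 bp for M02F4.t1, -25 bp for R11.t1 and -8 bp for ZK899.t1. In the runs printed above, the summit of W09D6.t2 falls on the first base shown (-40 bp), and that of C04A11.t1 within the gene (23 bp).

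In the replicates' own lists the median summit lay at 3.5 and 7 bp. Calls at snoRNA genes that were chosen in the same way had their median summit at -40 bp, with 42.0% within 50 bp. The window around a tRNA 5' end fixes the range of distances, but the counts fell off inside it: 101 and 121 calls lay in the 50 bp before and after the 5' end, 27 and 55 in the next 50 bp, and 1 in the 50 bp inside the upstream edge, against 7 just outside it. At the downstream edge, 24 calls lay in the last 50 bp inside and 20 in the first 50 bp outside, with median signals of 27.8 and 22.7.

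**Figure D2:**
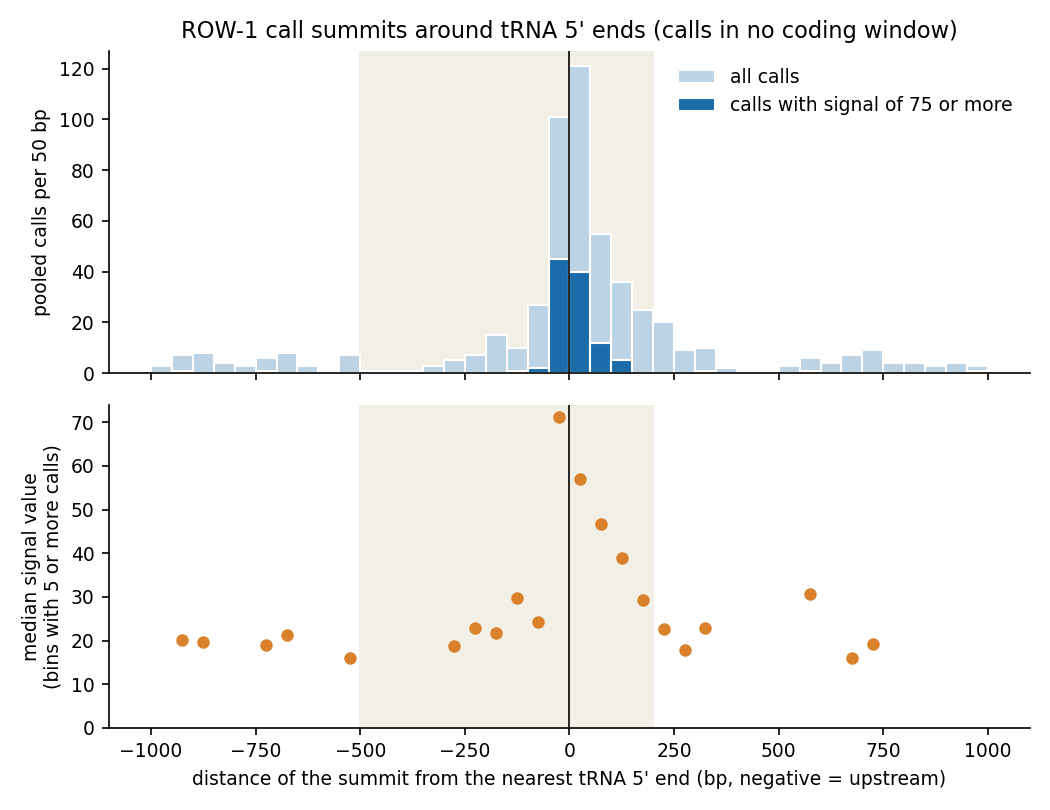
Top, the number of pooled calls in no protein-coding window per 50 bp of distance from the nearest tRNA 5' end to the summit, for all calls and for those with a signal of 75 or more; bottom, the median signal of the calls in each bin with 5 or more calls. The shaded span is the window used, and the highest counts (101 and 121) and the highest medians (71.1 and 57.1) stand in the bins next to the 5' end.

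Most of these calls were strong for the list but not the strongest in it. Their signal ran from 12.5 to 448 with a median of 46.1, against 19.96 for all nuclear pooled calls. The median call at tRNA genes stood at the percentile 89.5 of the pooled list, and in the replicates' own lists at 87.0 and 87.9 (87.4 ± 0.635, SD, n = 2). This strength was not particular to tRNA genes. By the same rule the median signal was 46.6 at snoRNA genes (150 calls, percentile 89.7) and 60.3 at snRNA genes (41 calls, percentile 92.8). At miRNA genes it was 24.0 (83 calls, percentile 64.6). The strongest 10% of the list held 49.0% of the calls at tRNA genes, against 9.94% of all nuclear calls. None of the 20 strongest nuclear calls of the pooled list was at a tRNA gene by this rule, 4 of the strongest 100 were, and 70 of the strongest 1000. The calls nearest the median signal were at F22H10.t1 (tRNA-Ser on X, 45.95), K07C10.t1 (tRNA-Lys on II, 46.2) and ZK678.t2 (tRNA-Pro on X, 45.9). F22H10.t1 had signals of 20.7 and 25.6 in replicates 1 and 2, ZK678.t2 had 21.7 and 19.3, and K07C10.t1 had a call in replicate 2 alone, at 25.3.

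On X, 194 of 276 tRNA genes had a call as defined (70.3%, 64.5 to 75.6%), and on the autosomes 208 of 336 (61.9%, 56.5 to 67.1%). The shares in the replicates were 68.5% and 67.0% on X and 59.5% and 57.7% on the autosomes. The rule leaves out calls in coding windows, and the 5' end lay in a coding window for 9.06% of X and 18.5% of autosomal tRNA genes. Among genes with the 5' end outside such windows the shares were 74.9% on X and 74.5% on the autosomes. With calls in coding windows kept, they were 75.4% and 76.2%, so X tRNA genes did not more often have a call of any kind. Among the autosomes, chromosome V was lowest, at 33 of 78 genes (42.3%, 31.2 to 54.02%), and III highest, at 47 of 64 (73.4%, 60.9 to 83.7%). With calls in coding windows kept, V was still lowest (62.8%) and II highest (84.2%).

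The signal of the calls was higher on X. The median signal was 51.0 on X (188 calls, 12.6 to 448) and 40.9 on the autosomes (222 calls, 12.5 to 221), while over all nuclear pooled calls it was 20.002 on X and 19.95 on the autosomes. The difference between the medians of the calls at tRNA genes was 10.1, but 6.78 with calls in coding windows kept. It was 5.64 and 2.98 in the own lists of replicates 1 and 2. Whether their signals share a scale with the pooled list is unknown, so these sizes cannot be set against 10.1. In the replicates' own lists the median percentile was 89.2 and 89.8 on X and 84.4 and 86.8 on the autosomes, each value on X above each on the autosomes. An optimal peak lay in the window of 82 X tRNA genes (29.7%, 24.4 to 35.5%) and 58 autosomal ones (17.3%, 13.4 to 21.7%), and for protein-coding genes the shares were 4.54% on X and 4.58% on the autosomes. Among the calls at tRNA genes the optimal peaks were those with a signal of at least 74.8. The optimal shares are therefore no measure apart from the signal. The optimal list rests on both replicates, so the 1574 strongest calls of each replicate, as many as there were optimal peaks, were also taken. They gave 28.3% and 31.5% of X tRNA genes (29.9 ± 2.31%, SD, n = 2) and 15.2% and 20.5% of autosomal ones (17.9 ± 3.79%), so the 2 values on X lay above both autosomal values. X minus autosomes was 13.1 and 10.99 points in the replicates (12.03 ± 1.48, SD, n = 2), and no test of it was run. For optimal peaks in no coding window X exceeded the autosomes by 15.0 points over all tRNA genes, but by 0.718 points among the 63 tRNA genes in which at least 80% of 36-base words are unique in the genome. Of these 63 genes, 19 lie on X and 44 on the autosomes, and 6 had an optimal peak when those in coding windows were kept. The value of 0.718 points, with coding windows left out, thus rests on at most these 6 genes. It does not settle whether X and the autosomes differ there.

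**Figure D3:**
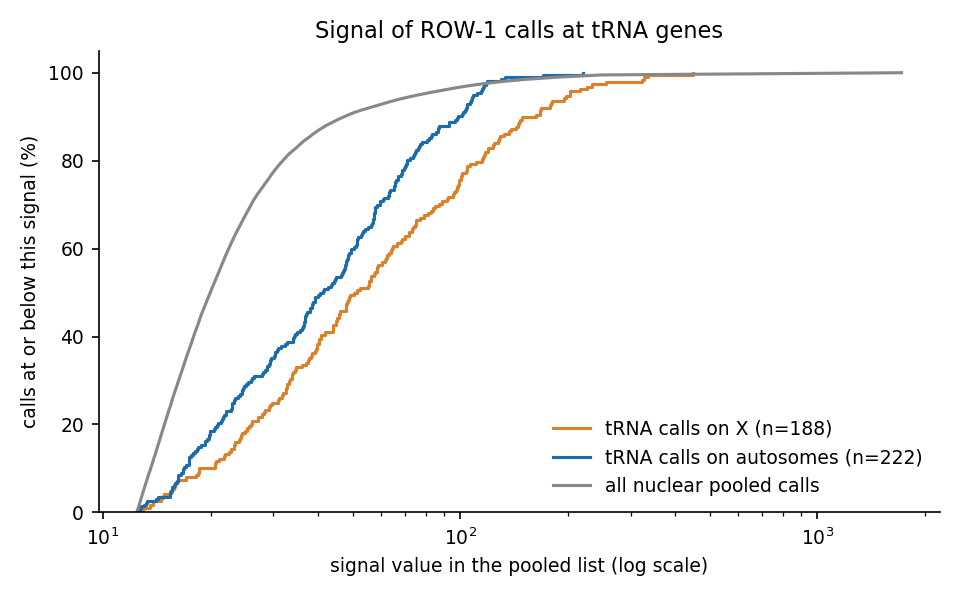
Cumulative percentage of calls (vertical axis) at or below a given signal value of the pooled list (horizontal axis, log scale) for tRNA calls on X, tRNA calls on the autosomes and all nuclear pooled calls. Both tRNA curves lie to the right of the curve of all calls except among the few highest signals, with medians of 51.0 and 40.9 against 19.96, and the X curve reaches further, to 448 against 221.

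Most of the calls were found in both replicates. Of the 410 calls, 381 were overlapped by a call in replicate 1 (92.9%) and 371 by one in replicate 2 (90.5%), 348 by both (84.9%, 81.0 to 88.2%) and 6 by neither, whereas 51.6% of all nuclear pooled calls were overlapped in both. The calls at tRNA genes were stronger than the list as a whole, and calls of like strength elsewhere were not compared. Over the 348 calls the signals of the replicates had a Spearman correlation of 0.68 and a Pearson correlation of log2 signals of 0.71, both descriptions over sites that share libraries. The Spearman value was 0.74 over 167 calls on X and 0.61 over 181 on the autosomes, and it was 0.50 over all 15460 nuclear calls found in both. On the Pearson measure of log2 signals, however, all nuclear calls had 0.72, about the value at the tRNA genes. Of the 348 calls, 76 were matched to a replicate call that also served another of them, and over the 262 with both replicate summits within 100 bp a restriction chosen after seeing the data, the values were 0.77 (Spearman) and 0.78 (Pearson). By gene and with calls in coding windows left out, 330 tRNA genes had a call in both replicates, 59 in replicate 1 alone, 49 in replicate 2 alone and 174 in neither. Of the 148 genes with no pooled call of any kind, 12 had a call in both replicate lists and 30 in 1 of them, here with calls in coding windows kept.

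The ranks were furthest apart for calls at C13B4.t1 (tRNA-Gln on II) and F01G12.t1 (tRNA-Glu on X), which were higher in replicate 1, and at C27A12.t1 (tRNA-Leu on I) and F23D12.t2 (tRNA-Pro on X), which were higher in replicate 2. C13B4.t1 had signals of 33.3 and 9.32 in replicates 1 and 2, at percentiles 91.0 and 19.1 of their lists. F23D12.t2, a copy of the tRNA-Pro genes shown above, had 9.69 and 25.9, at percentiles 18.2 and 90.6. The pooled signal was 43.5 at C13B4.t1, 37.6 at F23D12.t2 and 31.6 at C27A12.t1, where the replicate 1 summit lay 120 bp from the pooled one. The gap at F01G12.t1 was that of a second, weak call (12.9, summit at 179 bp), matched to the same replicate 1 call as the main call of the gene. That main call, at -21 bp, had a pooled signal of 58.9 and 31.4 and 29.1 in the replicates, at percentiles 90.3 and 92.4.

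**Figure D4:**
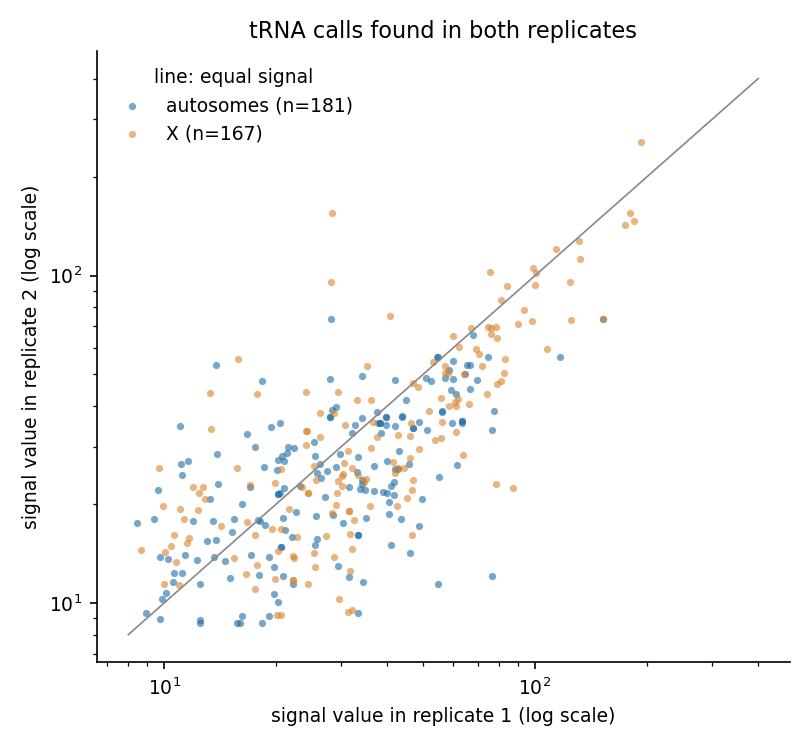
Signal value in replicate 1 against replicate 2 (both log scales) for the 348 tRNA calls found in both replicates, 167 on X and 181 on the autosomes; the line marks equal signal. The calls follow the line with a Spearman correlation of 0.68, and 228 of the 348 lie below it; whether the signals of the 2 lists share a scale is unknown.

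Many tRNA genes are exact copies of each other, and copies differed widely in signal. The 612 genes have 200 distinct sequences, 469 of them belong to 57 families of 2 or more identical genes, and 143 are single copies. The largest family is a tRNA-Gly gene in 29 copies, of which 24 had a call as defined, 4 had one in a coding window alone and 1, R04E5.t4 on X, had none. Within it the signal ran from 16.8 at C12C8.t3 and C12C8.t4 on chromosome I, which share a call, to 336 at M02F4.t1 on X, the call shared with the tRNA-Glu gene M02F4.t2, with a median of 51.9. The tRNA-Pro family of the first 3 runs above has 24 copies, 17 with a call as defined, 3 in a coding window alone and 4 with none, and its signals ran from 19.4 at R11G10.t2 on V to 256 at ZK899.t1. The tRNA-Arg gene C18A11.t2 has 10 copies, all on X: 8 had a call, from 32.8 at F12D9.t4 to 448, and K01A12.t3 and T06H11.t3 had none. Of the 32 families with 5 or more copies, 27 held genes with and genes without a call of any kind.

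Reads that lie wholly inside such a copy cannot be placed, so the uniqueness of the sequence stands beside these values. A median of 43.1% of the 36-base words that start in a tRNA gene occur once in the genome (words that start near the 3' end run past the gene), and in the 100 bp on either side the median is 100%. The sources used here give neither the read length nor the treatment of reads with several placements. Over the calls themselves a median of 87.3% of such words are unique. Single-copy genes had a pooled call of any kind in 58.7% of cases (84 of 143), genes with 2 to 3 copies in 74.5%, with 4 to 10 in 77.0%, with 11 to 20 in 81.9% and with 21 to 29 in 87.9%. Optimal peaks lay at 11.2% of single-copy genes and at 34.04%, 25.9%, 23.9% and 28.3% of the other classes. Among the 63 genes with at least 80% unique words, 22 had a call as defined (34.9%, 23.3 to 48.0%). The share was 26.3% of the 19 genes on X and 38.6% of the 44 on the autosomes, so the order of X and the autosomes was the opposite there. Both values lie within the interval of all 63 genes, and the genes on X are few. Whether annotated single-copy genes are transcribed was not tested.

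By amino acid, the shares had wide intervals. Among amino acids with 10 or more genes, the share with a call was highest for tRNA-Cys (12 of 13, 92.3%, 64.0 to 99.8%) and lowest for tRNA-Asn (9 of 20, 45.0%, 23.1 to 68.5%). These 2 intervals overlap, and the interval of tRNA-Cys and that of tRNA-Asn both reach the share of all genes, 65.7%. All 13 tRNA-Cys genes had a call when those in coding windows were kept, and 5 had an optimal peak. Among the 18 tRNA-Asn genes of 1 identical family, 9 had a call as defined, and F41D9.t3 on X, at 233, was the strongest. The 5 genes with no amino acid given had 1 call as defined.

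**Figure D5:**
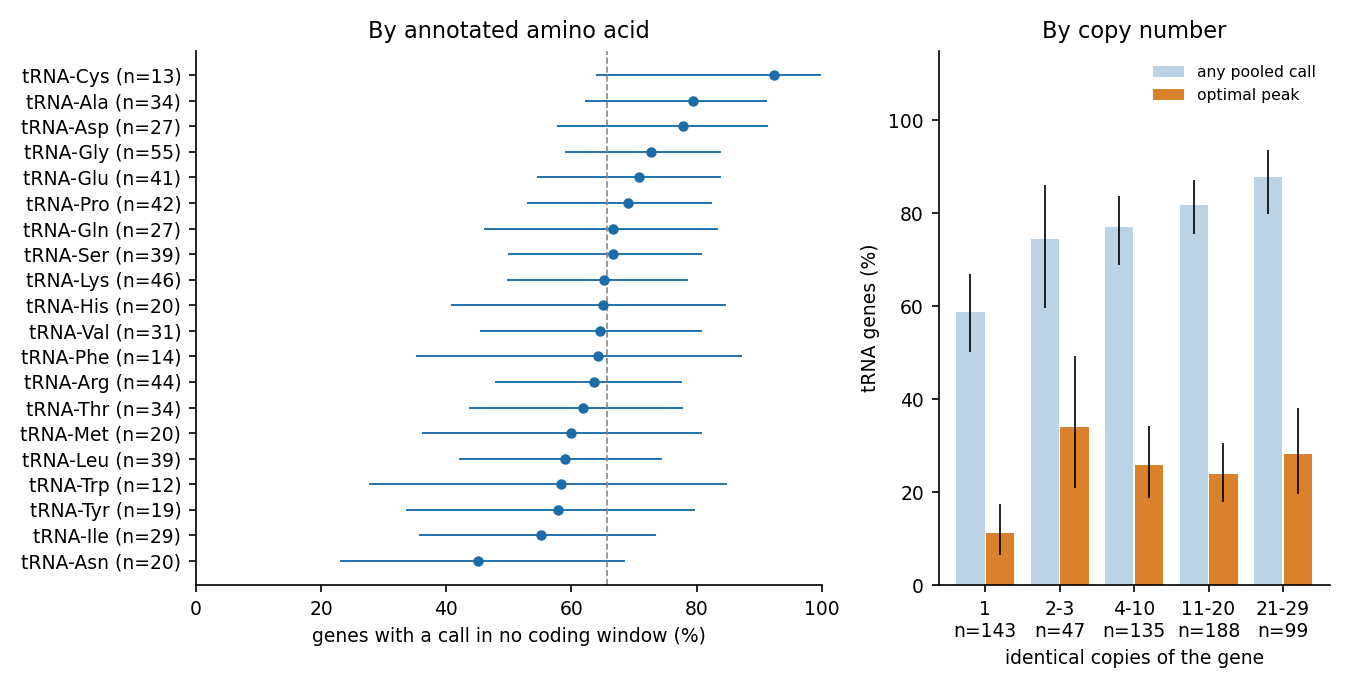
Left, the percentage of tRNA genes with a call in no protein-coding window for each annotated amino acid with 10 or more genes, with exact 95% intervals and a dashed line at the share of all tRNA genes (65.7%); right, the percentage of tRNA genes with any pooled call and with an optimal peak by the number of identical copies (lines, exact 95% intervals). tRNA-Cys stands highest at 92.3% and tRNA-Asn lowest at 45.0%, and any call ranges from 58.7% at single-copy genes to 87.9% at genes with 21 to 29 copies.

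The letters of the internal promoter did not go with the calls in 1 direction. The B box letters GTTCGANNC, searched on both strands, were in 442 of 612 tRNA genes (72.2%) and in 0.596% of 75-base windows at the 5' ends of protein-coding genes. The looser letters, which contain the first form and were chosen after the sequences were seen, were in 96.1% and 2.78%. A pooled call of any kind lay at 74.4% of genes with GTTCGANNC and at 79.4% of genes without it. The A box letters TNGCNNAG were in 44.0% of tRNA genes and 8.45% of coding windows, and the looser letters TNGNNNAG in 83.8% and 40.4%. A call of any kind lay at 72.9% of genes with TNGCNNAG and 78.1% of those without. With the looser letters the order was the opposite, at 76.0% against 70.8% for the B box and 76.6% against 71.7% for the A box. The genes without the looser letters were few, 24 for the B box and 99 for the A box. The intervals of their shares, 48.9 to 87.4% and 61.8 to 80.3%, hold the shares of the genes with the letters. Of the 29 tRNA genes with an intron, 19 had a call of any kind (65.5%), against 76.3% of the 583 others.

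Within groups of neighbouring tRNA genes (5' ends within 2 kb of the next) the calls were uneven. The group with the most calls was at F22F1 on X, with 8 genes and 6 calls: F22F1.t5 (tRNA-Asp) and F22F1.t6 (tRNA-Met) shared the strongest, at 58.4, and F22F1.t4 (tRNA-Ser) and F22F1.t7 (tRNA-Ile) had none. At R11 on X, 4 identical tRNA-Tyr genes lie in a row. R11.t1 had a signal of 324 and R11.t4 18.4, while R11.t2 and R11.t3 between them had no call. At C16B8 on X, C16B8.t2 and C16B8.t3 (tRNA-Pro) shared a signal of 124, and C16B8.t1, a copy of the tRNA-Pro genes shown above, had 34.8. Among all 343 tRNA genes with no such neighbour, 26.2% had an optimal peak, against 21.2% in groups of 2 and 14.1% in larger groups. A pooled call of any kind lay at 75.5%, 77.1% and 74.7%, and a call as defined at 65.0%, 65.3% and 68.7%, so the order seen for optimal peaks was absent from these shares.

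Protein-coding genes from a short list for the tRNA pathway had calls about as often as all protein-coding genes. The list held 44 symbols, chiefly of RNA polymerase III subunits, its factors, and tRNA export, splicing and modification genes. Of these, 34 matched the gene models and 10 did not, so the shares do not cover the whole pathway. A pooled call lay at 11 of the 34 (32.4%), against 29.2% of all protein-coding genes, and an optimal peak at 1 (2.94%), against 4.58%. The list also held trpp-1, which encodes a subunit of the TRAPP complex of vesicle traffic and had a call; without it, 10 of 33 had one (30.3%). The optimal peak was at rpac-19, which encodes a subunit shared by RNA polymerases I and III, with a signal of 83.2. The next strongest were at tftc-1, which encodes a TFIIIC subunit, with 71.3, at snpc-3.4, which encodes a subunit of the small nuclear RNA activating complex, with 43.6, and at xpo-3, named for the export factor of tRNAs, with 37.5. At rpc-1 and rpc-2, which encode the largest subunits of RNA polymerase III, the signals were 31.8 and 31.5, and brf-1, which encodes a TFIIIB subunit, had no call.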

How the data were processed

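Peak lists of 2 replicates, a pooled list and an optimal list on ce11 were used, in narrowPeak format. The authors deposited each call's signal value, which ranks calls within a list, and a −log10 q-value, not used here. The sources used here name no aligner, caller, version, threshold, read length or scale of the signal, so a replicate was called higher or lower by percentile or rank alone, and signals are given as deposited. Lists on ce10 were not used. No coordinates were converted.

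Gene models were those of Ensembl release 115, with windows at every transcript 5' end for protein-coding genes. RefSeq gave amino acids and sequence for all 612 nuclear tRNA genes. Replicate calls were matched by an overlap of 1 bp, taking the nearest summit. Shares have exact Clopper-Pearson intervals at 95%, and no tests were run. The rule was checked on planted positions. Named genes are those of the 12 strongest calls, the strongest call per chromosome, the extreme amino acids, up to 3 neighbour groups, the largest identical family, 3 calls near the median and the widest replicate gaps. Printed sequences are of genes without an identical copy on chromosome I. The members and lists were chosen with earlier results of these data known. Computations used Python 3.11.15, pandas 2.3.3 and scipy 1.17.1. Alternatives are given in the closing section.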

Additional observations from a re-analysis of the deposited data

How the results depend on the processing

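No paired analysis was possible because the series has 1 group and no contrast. A share or percentile counted as moved when it differed from the reported value by more than 1 SD of the replicates (n = 2), and a count when it differed by more than 1.5 times. The SDs were small (0.356 to 2.60 points), so many values moved by this measure. RefSeq tRNA genes moved none of the results, and the 330 genes with a call in both replicates were 322 when calls had to overlap by 50% of the shorter and 283 with summits within 100 bp.

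The number of calls at tRNA genes was 342 to 488 under every other setting, except 105 for calls at least as strong as the weakest optimal peak and 26 for the 63 tRNA genes with at least 80% unique 36-base words. For the share of tRNA genes with a call, and the same on X and on the autosomes, the narrower window (250 and 100 bp) gave 63.2, 63.0 and 63.4%. The wider window (1000 and 500 bp) gave 62.6% of all and 56.2% of autosomal genes, and overlap of the call in place of the summit gave 73.2% on X and 59.2% on the autosomes. Calls in coding windows kept gave 75.8, 75.4 and 76.2%, 1 call per set of overlapping rows 62.7, 65.9 and 60.1%, the stronger calls 19.3, 27.5 and 12.5%, and the genes with unique words 34.9, 26.3 and 38.6%. Coding windows at gene 5' ends alone, chosen after seeing the data, gave 68.5% of all and 66.4% of autosomal genes. With 1 replicate left out the shares were 61.9 to 63.6% of all genes, 67.03 to 68.5% on X and 57.7 to 59.5% on the autosomes.

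X minus autosomes for this share, 8.39 points as reported, was -0.349 points in the narrower window, -0.828 with calls in coding windows kept and -12.3 among genes with unique words, and 4.65 to 15.0 otherwise. For optimal peaks in no coding window the same difference was 15.0 points, and 12.4 to 16.2 under the alternatives except 0.718 among genes with unique words. For the median signal it was 10.1, and 8.54 to 11.7 in most settings. It was 6.78 with calls in coding windows kept, 17.4 for the stronger calls and 19.98 for genes with unique words. With 1 replicate left out it was 2.98 to 5.64, in lists whose signals may be on another scale. These sizes therefore cannot be set against 10.1. The values for genes with unique words rest on 19 genes on X and 44 on the autosomes, with 26 calls.

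The share of calls that overlap an optimal peak was 33.0% in the narrower window, 27.5% in the wider, 29.2% with overlap, 30.1% with 1 call per set, 11.5% for genes with unique words, 30.2% with gene 5' ends and 100% for the stronger calls, by construction. It was 25.6% for calls that are optimal peaks themselves, and 32.02 to 32.5% with 1 replicate left out. The median percentile was 90.5, 85.8, 86.6, 91.2 and 60.4 in the narrower and wider window, with overlap, with 1 call per set and for genes with unique words, 97.1 for the stronger calls, and 86.98 to 87.9 with 1 replicate left out. Upstream summits made up 49.2% and 45.7% in the narrower and wider window, 45.7% of the stronger calls, 53.8% at genes with unique words, and 43.3 to 46.4% with 1 replicate left out. The share overlapped in both replicates was 73.1% for genes with unique words. It was 100% for the stronger calls, which are optimal peaks and so already past the authors' reproducibility threshold. With 1 replicate left out this share cannot be measured, since each call of a replicate matches itself. Of the calls of replicate 1 at tRNA genes, 87.1% were overlapped by a call in replicate 2. Of those of replicate 2, 90.8% were overlapped by a call in replicate 1. Where a cause is not given, the cause was not tested. Without read counts, the depth behind weak calls is unknown.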
